A study of Mus musculus with 12 samples.

Results

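The genes described here are 10 immediate early genes of the mouse retina, Fos, Fosb, Jun, Egr1, Atf3, Nr4a1, Ier2, Dusp1, Klf4 and Arc. They were chosen by symbol, through the RefSeq accession of their array probes, and make up 10 of the 23237 genes tested. Each had 1 probe, every one of the 10 probes passed the filter on dim probes, and all were well above background in both channels on all 12 arrays. The study injected particles into the vitreous of the right eye of male C57BL/6 mice aged 5 weeks and took the retinas 7 days later. The 4 particle groups received gold of 100 nm, gold of 20 nm, silicate of 100 nm or silicate of 20 nm, and the control group received phosphate-buffered saline (PBS), with 12 mice per group. A tube held the pooled retinas of 4 mice, which gave 3 tubes per group, and each array set 1 particle tube (dye Cy5) against PBS retinas (dye Cy3). The dyes were never exchanged, so a dye effect of a probe is part of every ratio of particle over PBS but cancels between particle groups. Pooling hides the spread between mice, and p-values measure the spread between arrays of pooled retinas.

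Immediate early genes are transcribed within minutes of a stimulus such as a growth factor, calcium entry, depolarization or stress, from factors that already sit in the cell. MAP kinases and calcium-dependent kinases phosphorylate the factors SRF, ELK1 and CREB, which bind the serum response element and the cyclic AMP response element (CRE) in front of these genes. Many of the products are transcription factors that act on a later set of genes, and others, such as phosphatases, end the signal. In the retina, Fos and Egr1 are known as markers of neurons that light has activated, and Atf3 and Jun as genes that injured ganglion cells induce.

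Promoter sequences, 250 bases before the RefSeq start on GRCm38.p6, were matched for 7 of the 10 genes (Fos, Fosb, Jun, Atf3, Nr4a1, Dusp1 and Klf4), and not for Egr1, Ier2 and Arc. The 3 sequences below belong to genes whose gold retinas were below their silicate retinas on each slide, the pattern described further on. Capitals mark the CRE core TGACG or its reverse complement CGTCA.
Fos, chr12:85473640-85473889, + strand: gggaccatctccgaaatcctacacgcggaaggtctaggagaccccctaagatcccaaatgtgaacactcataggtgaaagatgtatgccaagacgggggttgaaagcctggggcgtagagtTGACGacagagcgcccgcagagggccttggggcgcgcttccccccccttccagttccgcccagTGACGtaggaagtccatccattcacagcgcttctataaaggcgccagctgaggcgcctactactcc
Nr4a1, chr15:101266596-101266845, + strand: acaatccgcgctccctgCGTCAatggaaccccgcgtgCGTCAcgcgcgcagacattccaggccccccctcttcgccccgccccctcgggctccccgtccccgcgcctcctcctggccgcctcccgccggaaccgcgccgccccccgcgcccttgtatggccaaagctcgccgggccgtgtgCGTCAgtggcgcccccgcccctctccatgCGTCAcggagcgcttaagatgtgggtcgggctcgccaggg
Dusp1, chr17:26508473-26508722, - strand: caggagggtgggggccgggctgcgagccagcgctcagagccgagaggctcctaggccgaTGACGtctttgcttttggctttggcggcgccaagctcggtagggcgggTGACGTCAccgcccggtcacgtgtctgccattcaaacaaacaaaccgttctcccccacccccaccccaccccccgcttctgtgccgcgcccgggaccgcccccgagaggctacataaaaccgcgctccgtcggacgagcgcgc

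The Fos window held 2 cores, the nearer one at -66 to -62 from the start, the Nr4a1 window held 4, and the Dusp1 window held 3. Both strands were searched. A core was present in 6 of the 7 windows, all but that of Jun, against 17.8% of all 32851 promoters in the table. The full CRE TGACGTCA, which contains a core on each strand, was found in Dusp1 alone among the 7, at -143 to -136, against 1.55% of all promoters. The EGR site GCGNGGGCG, the letters that Egr1 and its relatives recognise, was found in Fosb, Nr4a1 and Klf4, against 4.7% of all promoters. The AP-1 site TGANTCA and the CArG box, the core of the serum response element, were in none of the 7 windows, against 6.75% and 1.47% of all promoters. These counts describe letters in a short window and say nothing about binding.

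Arrays of replicates 1, 2 and 3 lay on slides 1, 2 and 3. A slide held 1 array from every group in a fixed order, so the position of an array and its group cannot be told apart. The PBS level of the 10 genes differed little between the 4 arrays of a slide, which were taken to share 1 PBS tube. This is an assumption, since the summed PBS level of neutrophil markers on slide 3 was 12.06 and 12.00 on the gold arrays against 13.95 and 14.73 on the silicate arrays. Where the tube is shared, the 4 ratios of a slide share their control, and the 4 comparisons against PBS are not independent. Rod markers, which define the tissue, were well above background on all arrays (12 of 12 genes). Markers of tissue next to the retina varied between pools. The summed PBS level of cornea, ciliary body and muscle markers was 13.74 to 13.87 on slide 3. On slides 1 and 2 it was 10.28 to 11.69. That of pigment epithelium markers ran from 13.37 to 16.03, and that of lens markers in particle retinas from 14.81 to 19.39. Their part in the values of the 10 genes was not tested. Markers of macrophages and microglia, such as Csf1r and C1qa, followed the slides: their median log2 ratio was -3.01 to -1.84 on slide 1 and 0.25 to 1.11 on slide 2, and on slide 3 it was -0.71 and -0.43 with gold against 3.54 and 3.25 with silicate.

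The levels of the immediate early genes are shown first, because every ratio rests on them. For all 10 genes the SD over the slides was lower in gold retinas than in silicate retinas and than in PBS retinas, at 0.03 against 0.55 and 1.07 for Fos and at 0.15 against 0.59 and 1.53 for Egr1. Levels are normalized log2 intensity and are compared within a gene only. Fos, a subunit of the AP-1 factor, was at 8.90, 8.92 and 8.97 in the gold retinas of slides 1, 2 and 3 (mean of both sizes), at 9.83, 10.04 and 10.86 in the silicate retinas, and at 10.72, 9.13 and 8.70 in the PBS retinas (mean of 4 readings). The PBS retinas of slide 1 were thus above both materials, while those of slides 2 and 3 were close to gold and below silicate. Egr1, a zinc finger factor, was at 9.81, 9.56 and 9.56 in gold retinas, at 11.21, 11.35 and 12.29 in silicate retinas, and at 12.21, 9.71 and 9.44 in PBS retinas. Its PBS level on slide 1 stood above gold on every slide and below silicate on slide 3 only.

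Atf3, a stress-induced factor of the ATF/CREB family, was at 9.69, 9.32 and 9.56 in gold retinas, at 10.06, 9.08 and 11.05 in silicate retinas, and at 11.64, 9.27 and 9.56 in PBS retinas. Here silicate exceeded gold on slides 1 and 3 and not on slide 2. Nr4a1, an orphan nuclear receptor, was at 11.91, 11.84 and 11.68 in gold retinas, at 12.34, 12.75 and 12.45 in silicate retinas, and at 12.99, 11.96 and 11.60 in PBS retinas. Silicate stood above gold on each slide. Jun, the partner of Fos in AP-1, was at 12.04, 12.17 and 12.03 in gold retinas, at 12.32, 12.27 and 13.48 in silicate retinas, and at 13.60, 11.97 and 12.43 in PBS retinas. Its silicate level stood out on slide 3.

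Over the 3 slides the SD of the PBS level was 1.53 for Egr1, 1.29 for Atf3, 1.07 for Fos, 0.84 for Jun, 0.72 for Nr4a1, 0.59 for Dusp1, 0.54 for Fosb, 0.33 for Klf4, 0.30 for Ier2 and 0.07 for Arc, against a median of 0.16 over all genes. Within a slide the median SD over 4 readings of the PBS level was between 0.03 and 0.07 for each of these genes. Of the 10 genes, 9 thus varied more between PBS pools than the median gene, Arc being the exception. All but Klf4 and Arc had their highest PBS level on slide 1. Klf4 differed, with 9.14, 9.18 and 9.74 in PBS retinas of slides 1, 2 and 3.

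**Figure D1:**
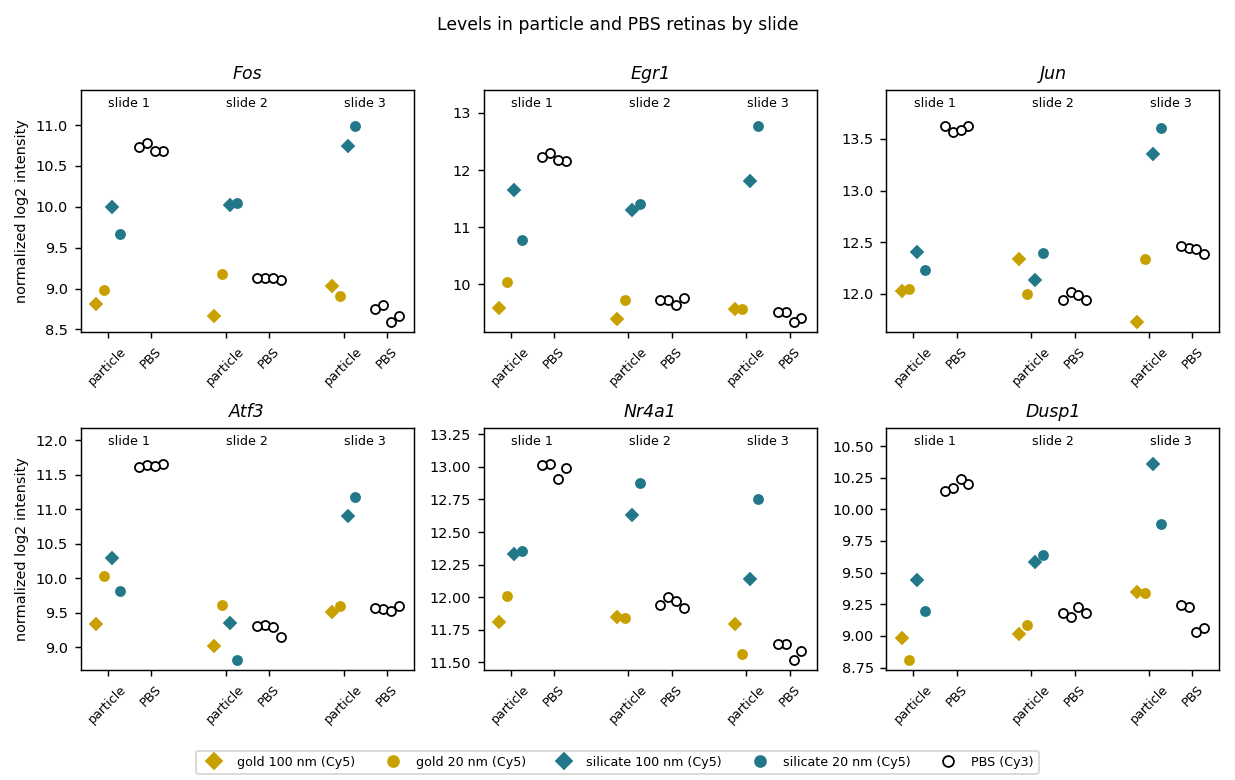
Normalized log2 intensity (vertical axis, its own range for each gene) of 6 genes in particle retinas (filled, Cy5, gold in yellow and silicate in blue, diamonds 100 nm and circles 20 nm) and in PBS retinas (open circles, Cy3), with 1 point per array and slides 1 to 3 from left to right. For Fos, gold points average 8.90, 8.92 and 8.97 on slides 1, 2 and 3, while the PBS points average 10.72, 9.13 and 8.70.

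No immediate early gene of the 10 was called in any of the 4 particle groups against PBS at an adjusted p of 0.05 in limma, where the share of all genes called was 0.977% for gold 100 nm, 0.706% for gold of 20 nm, 0.99% for silicate of 100 nm and 2.08% for silicate 20 nm. At an unadjusted p under 0.05 the count was 1 of 10 for gold 100 nm (Klf4) and 0 in the other groups. The median log2 ratio of the 10 genes was -0.47 with gold 100 nm, -0.42 with gold 20 nm, 0.13 with silicate 100 nm and 0.15 with silicate 20 nm, beside medians of all genes between -0.02 and 0.01. All 10 group means lay below 0 with either gold size, and 7 of 10 lay above 0 with either silicate size. These means average over slides that differed. On slides 1, 2 and 3 the median ratio of the 10 genes was -1.23, -0.18 and 0.06 with gold 100 nm. It was -1.19, -0.01 and -0.02 with gold 20 nm. With silicate it was -0.63, 0.18 and 0.77 for 100 nm, and -1.01, 0.33 and 1.19 for 20 nm. Of all genes, 48.5% to 51.6% lay above 0 on an array.

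The AP-1 subunits spread widely over the slides. Fos had log2 ratios of -1.92, -0.47 and 0.28 on slides 1, 2 and 3 with gold 100 nm, and of -1.80, 0.05 and 0.11 with gold 20 nm. With silicate 100 nm its ratios were -0.69, 0.89 and 2.15, and with silicate 20 nm they were -1.01, 0.94 and 2.33. Each group thus held both signs, with all 4 arrays of slide 1 below PBS and both silicate arrays of slide 3 highest. The means were -0.71 ± 1.12, -0.55 ± 1.09, 0.78 ± 1.42 and 0.75 ± 1.68 in the same order of groups (SD, n = 3 each; adjusted p of 0.76, 0.847, 0.803 and 0.708 in limma). The Fos probe was printed in 10 spots, and the SD over its spots was 0.04 to 0.09 on every array, far below the spread between slides.

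Fosb, a relative of Fos, had ratios of -1.25, -0.14 and -0.21 with gold 100 nm, of -0.72, 0.31 and -0.25 with gold 20 nm, of -0.73, -0.07 and 0.23 with silicate 100 nm, and of -1.06, -0.21 and 0.67 with silicate 20 nm. The groups overlapped. Jun had ratios of -1.60, 0.39 and -0.73 with gold 100 nm, of -1.52, -0.02 and -0.11 with gold 20 nm, of -1.18, 0.14 and 0.92 with silicate 100 nm, and of -1.40, 0.46 and 1.22 with silicate 20 nm. On slide 1 its 4 ratios lay within -1.60 to -1.18. The adjusted p in limma was at least 0.614 for Fosb and at least 0.73 for Jun in the 4 groups.

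Among the other transcription factors, Egr1 had the widest range of the 10 genes, with ratios of -2.65, -0.34 and 0.05 on slides 1, 2 and 3 with gold 100 nm, of -2.25, 0.00 and 0.04 with gold 20 nm, of -0.52, 1.66 and 2.48 with silicate 100 nm, and of -1.39, 1.63 and 3.37 with silicate 20 nm. The 4 silicate arrays of slides 2 and 3 were above all 6 gold arrays. The mean with silicate 20 nm was 1.21 ± 2.41, a 2.31-fold level, and with silicate 100 nm 1.20 ± 1.55, a 2.30-fold level (SD, n = 3; limma adjusted p of 0.609 and 0.735). Atf3 had ratios of -2.27, -0.28 and -0.06 with gold 100 nm, of -1.60, 0.28 and 0.05 with gold 20 nm, of -1.34, 0.06 and 1.39 with silicate 100 nm, and of -1.84, -0.33 and 1.58 with silicate 20 nm. Its groups overlapped on slides 1 and 2.

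Nr4a1 had ratios of -1.21, -0.09 and 0.16 with gold 100 nm, of -1.01, -0.16 and -0.08 with gold 20 nm, of -0.58, 0.66 and 0.62 with silicate 100 nm, and of -0.64, 0.96 and 1.17 with silicate 20 nm. As for Egr1, its 4 silicate arrays of slides 2 and 3 were above all gold arrays. Klf4, a zinc finger factor of epithelia and stem cells, had ratios of -0.19, -0.20 and -0.72 with gold 100 nm, of -0.01, 0.03 and -0.58 with gold 20 nm, of 0.00, 0.02 and -0.11 with silicate 100 nm, and of 0.08, 0.00 and -0.12 with silicate 20 nm. Its ratio was low on the gold arrays of slide 3, not on those of slide 1. Its gold level was 9.07, 9.09 and 9.22 on slides 1, 2 and 3. The PBS level on the gold arrays was 9.16, 9.17 and 9.87, so the low ratio went with a higher PBS level. The mean ratio of Klf4 with gold 100 nm, -0.37 ± 0.30, had an unadjusted p of 0.0187 and an adjusted p of 0.284 in limma.

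Of the remaining genes, Dusp1, a phosphatase that switches off MAP kinases, had ratios of -1.16, -0.17 and 0.10 with gold 100 nm, of -1.36, -0.06 and 0.11 with gold 20 nm, of -0.80, 0.35 and 1.33 with silicate 100 nm, and of -1.003, 0.46 and 0.82 with silicate 20 nm. Ier2, a nuclear protein of the immediate early response, had ratios of -0.70, -0.40 and 0.17 with gold 100 nm, of -0.47, -0.07 and -0.04 with gold 20 nm, of -0.44, 0.22 and 0.32 with silicate 100 nm, and of -0.33, 0.21 and 0.72 with silicate 20 nm. Both followed the pattern of Fos with a smaller range. Arc, a protein of the neuronal cytoskeleton that acts at synapses, lay between -0.08 and 0.08 on all 6 gold arrays and between -0.08 and 0.17 on the silicate arrays of slides 1 and 2. On slide 3 it reached 0.55 with silicate 100 nm and 1.83 with silicate 20 nm, while the other 2 arrays of silicate 20 nm were at -0.08 and -0.05, for a group mean of 0.57 ± 1.09 (SD, n = 3; limma adjusted p of 0.417). With the deposited processed signals Arc ran between -0.31 and 0.32 on the 6 gold arrays. On the silicate arrays of slides 1 and 2 it then ran between -0.07 and 0.35. Ier2 then ran between -1.19 and 0.92 over all arrays, against -0.70 to 0.72 above. The size of these small ratios thus depended on the processing.

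**Figure D2:**
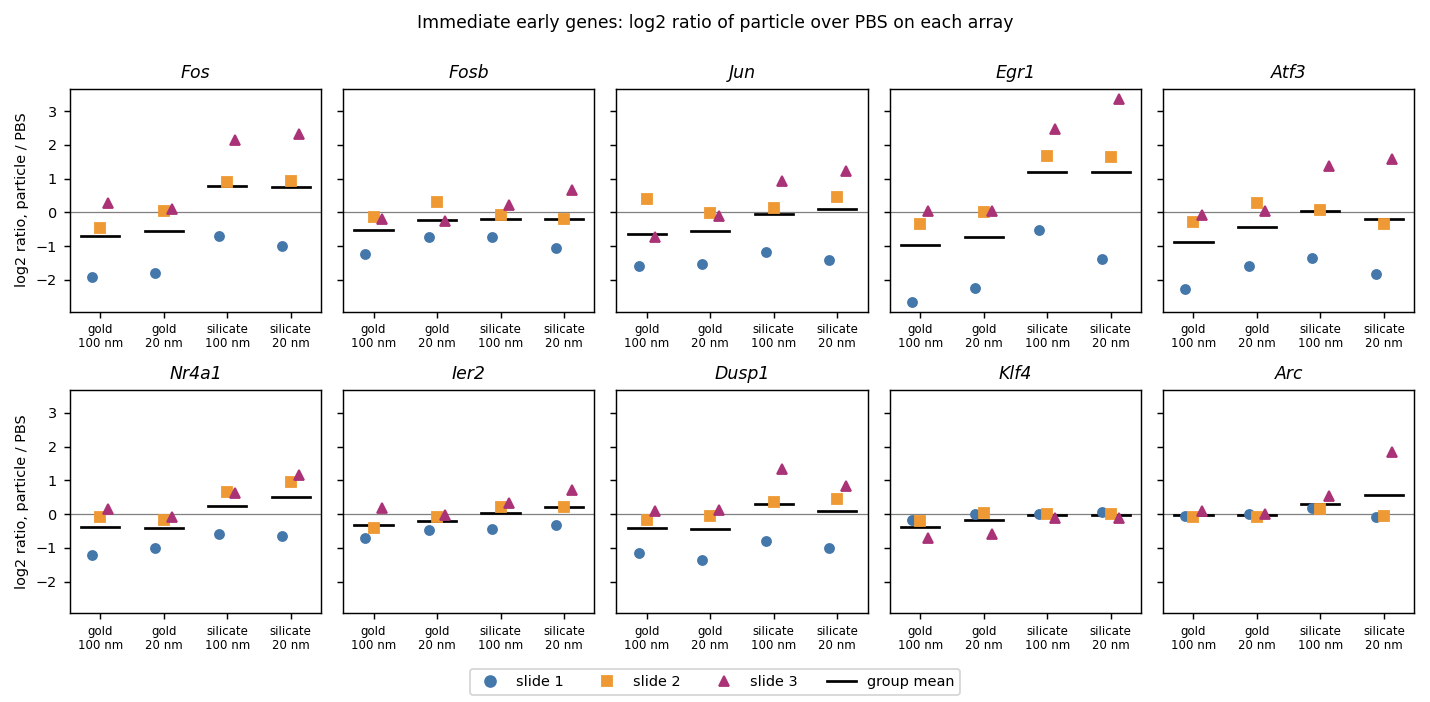
Log2 ratio of particle over PBS (vertical axis, shared by all panels) for each of the 10 genes, with 1 symbol per array, shaped and coloured by slide, and a bar at the mean of the 3 arrays of a group. All panels but those of Klf4 and Arc show slide 1 lowest in each group, at -1.92 to -0.69 for Fos, and the silicate arrays of slide 3 high, at 2.15 and 2.33 for Fos.

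The slide as a block in the fit takes the differences between slides out of the error. With them go those between PBS tubes, where the arrays of a slide share 1. In that fit 1 of the 10 genes was called with gold 100 nm and 3 of the 10 with silicate 20 nm. The same fit called 6.71% and 8.76% of all genes. Klf4 was lower with gold 100 nm (-0.37, limma adjusted p = 0.0357), and Fos (0.75, adjusted p = 0.0457), Egr1 (1.21, adjusted p = 0.0372) and Nr4a1 (0.50, adjusted p = 0.0306) were higher with silicate 20 nm. With the slide as a random block, whose estimated correlation was 0.494, these calls were lost, with a limma adjusted p of 0.274 for Klf4, 0.548 for Fos, 0.453 for Egr1 and 0.466 for Nr4a1. The calls for Fos, Egr1 and Nr4a1 concern genes whose ratio was below 0 on slide 1 in that group. Without slide 1, Nr4a1 was called with silicate 20 nm at 1.07 (limma adjusted p = 0.0211), where 0.207% of all genes were called, and no other of the 10 genes was called in a single particle group.

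The mean of the 4 particle groups against PBS also called 0 of the 10 genes, where it called 14.8% of all genes. That fit took the 12 ratios as independent. Where the arrays of a slide share a PBS tube, the mean rests on 3 PBS tubes, and its p-values can understate their spread. The SE of Klf4 was 0.065 in that fit, against 0.095 with the slide as a random block. The 10 means ran between -0.37 for Atf3 and 0.20 for Arc, 7 of them below 0. Klf4 had an unadjusted p of 0.0448 there (mean -0.15 over 12 arrays, limma adjusted p = 0.155). With the slide as a block, Klf4 (-0.15, adjusted p = 0.0219) and Fosb (-0.29, adjusted p = 0.032) were lower, 2 of the 10 genes where that fit called 34.8% of all genes. Both calls were lost with the slide as a random block (limma adjusted p of 0.565 for Klf4 and 0.663 for Fosb). Without slide 1, Egr1 (1.11, limma adjusted p = 0.0456) and Nr4a1 (0.40, adjusted p = 0.0111) were higher, where 4.13% of all genes were called, against means of 0.17 and -0.02 over all 3 slides, so that the direction of Nr4a1 turned with that slide.

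In gold against silicate the PBS tube of a slide cancels if its 4 arrays share it, and here all 10 immediate early genes had a lower mean with gold than with silicate. The median difference was -0.59 on the log2 scale, beside -0.02 for all genes. In the fit without a slide term 0 of the 10 genes were called, as were 0% of all genes, while 1206 of all genes and 1 of the 10, Egr1, had an unadjusted p under 0.05. Egr1 had a mean log2 ratio of -0.86 with gold and of 1.20 with silicate, a difference of -2.06 (95% interval -4.10 to -0.03, limma adjusted p = 0.881). Fos had -0.63 with gold and 0.77 with silicate, a difference of -1.39 (interval -2.98 to 0.19, adjusted p = 0.881). The intervals of the other 8 genes also included 0.

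Slide by slide, the Fos difference of gold minus silicate was -1.01, -1.13 and -2.04 on slides 1, 2 and 3. That of Egr1 was -1.49, -1.82 and -2.88, and that of Nr4a1 was -0.50, -0.94 and -0.86. For these genes, and for Dusp1 (-0.36, -0.52 and -0.97) and Ier2 (-0.20, -0.45 and -0.45), both gold arrays were below both silicate arrays on each of the 3 slides. This held for 5 of the 10 genes, where it held for 2.7% of all genes, and for 5 of 40 other immediate early genes with a value on all arrays. For Ier2 it depended on the processing. With the deposited processed signals its arrays overlapped on slide 1, at -1.19 and -0.42 with gold against -0.69 and -0.24 with silicate. They also overlapped there with the deposited value table, at -0.58 with gold 20 nm against -0.83 with silicate 100 nm.

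The other 5 genes differed chiefly on slide 3. Jun had differences of -0.27, -0.11 and -1.49 on slides 1, 2 and 3, and Arc had -0.07, -0.13 and -1.15. Klf4 had -0.13, -0.09 and -0.54. On slide 3 its particle level differed by -0.28, gold minus silicate, and its PBS level by 0.26 between the same arrays. Atf3 (-0.35, 0.13 and -1.49) and Fosb (-0.09, 0.22 and -0.68) changed sign on slide 2. Without slide 3 the mean difference was -1.65 for Egr1, -1.07 for Fos, -0.72 for Nr4a1, -0.44 for Dusp1 and -0.33 for Ier2, while it was -0.19 for Jun, -0.11 for Atf3 and Klf4, -0.10 for Arc and 0.07 for Fosb. Leaving out only the 2 silicate arrays of slide 3, which unbalances the slides, gave -1.20 for Egr1, -0.66 for Fos and -0.50 for Nr4a1, and values above 0 for Atf3 (0.21) and Fosb (0.14).

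**Figure D3:**
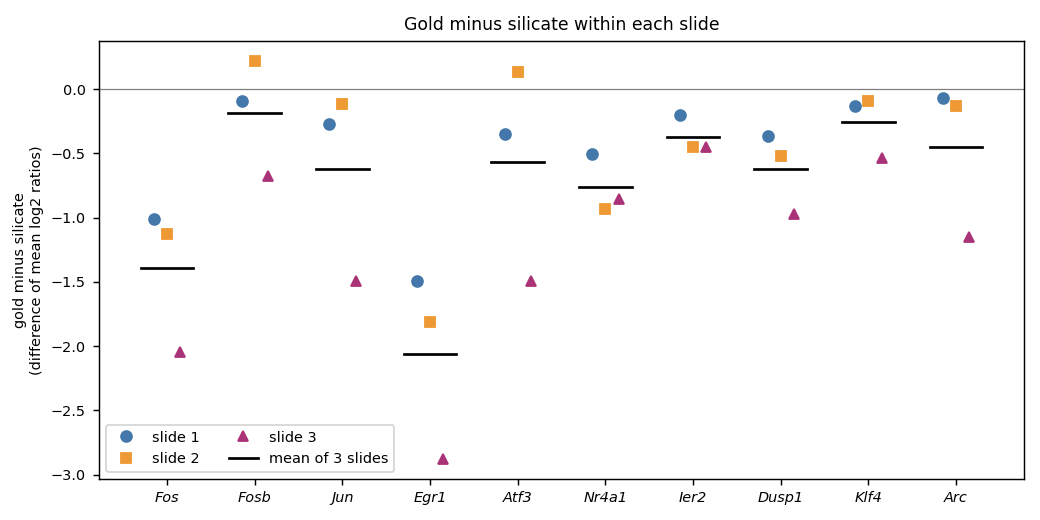
Difference of the mean log2 ratio, gold minus silicate, within each slide (vertical axis), for the 10 genes, with 1 symbol per slide and a bar at the mean of the 3 slides. All slides lie below 0 for each gene but Fosb and Atf3, which are at 0.22 and 0.13 on slide 2, and Egr1 lies lowest, at -1.49, -1.82 and -2.88.

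With the slide as a block the same differences had standard errors of 0.19 for Fos, 0.28 for Egr1 and 0.11 for Nr4a1, and the limma adjusted p was 0.0875 for each, with 0 genes called in the whole table and 3777 at an unadjusted p under 0.05. It was 0.136 for Dusp1 and 0.197 for Ier2. With the slide as a random block it was 0.154 for Egr1, 0.176 for Fos and 0.185 for Nr4a1. No setting tried called any of the 10 genes between gold and silicate. The PBS level of the 10 genes on the gold arrays of a slide differed from that on its silicate arrays by between -0.22 and 0.26, with a median size of 0.05.

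Markers of other cells moved with this difference on slide 3 in particular. On slides 1 and 2 the median log2 ratio of 13 measured macrophage and microglia markers was -3.01 and 0.51 with gold 100 nm, -2.41 and 1.11 with gold 20 nm, -2.43 and 0.25 with silicate 100 nm, and -1.84 and 0.37 with silicate 20 nm. On slide 3 it was -0.71, -0.43, 3.54 and 3.25 in the same groups. The summed level of that list was 15.27 to 15.91 in gold retinas, 15.62 to 18.70 in silicate retinas and 15.34 to 17.79 in PBS retinas, and on each array at least 12 of the 13 were well above background. On slide 2 the summed level was 15.81 and 15.91 with gold 100 nm and 20 nm, against 15.63 and 15.91 with silicate 100 nm and 20 nm.

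The summed level of 8 measured neutrophil markers, among them S100a8, was 11.85 to 15.35 in gold retinas, 13.27 to 17.75 in silicate retinas and 11.94 to 18.57 in PBS retinas, with up to 3 of the 8 not above background on an array. Their PBS level was highest on slide 1, at 18.45 to 18.57, and their median ratio there was -3.38 to -2.49. On slide 2 their median ratio was -0.09 and 0.06 with gold 100 nm and 20 nm, against 0.47 and 0.83 with silicate 100 nm and 20 nm. On slide 3 it was -0.16 and -0.06 with gold, against 2.73 and 1.30 with silicate, in the same order of sizes. Genes of reactive gliosis, such as Gfap and Socs3, had median ratios of 0.18 and 1.18 with gold 100 nm and 20 nm on slide 2, against 0.22 and 0.03 with silicate 100 nm and 20 nm. On slide 3 their medians were -0.79 and -0.28 with gold against 1.74 and 2.08 with silicate. The summed PBS level of the gliosis genes was 18.34 to 18.45 on slide 1, against 14.72 to 15.73 on slides 2 and 3. Rod markers had median ratios of 0.29 and 0.24 with gold 100 nm and 20 nm on slide 3, against -0.87 with either silicate size, where 0 of the 12 were above 0. On slide 1 their medians were 0.48 to 0.65 over the 4 arrays. The part of these cells in the immediate early gene values was not tested, and in pooled tissue a change in the number of cells and in the RNA per cell cannot be told apart.

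Across the 12 arrays, which share slides, the log2 ratio of each gene was set beside the mean of the other 9 as a description. Pearson's r was 0.98 for Fos and Egr1, 0.90 to 0.95 for Fosb, Jun, Atf3, Nr4a1, Ier2 and Dusp1, 0.65 for Arc and -0.07 for Klf4. Against the median of the macrophage and microglia markers, r was 0.95 for Atf3 and Jun, 0.92 for Fos and 0.84 for Nr4a1, but 0.02 for Klf4. The neutrophil and reactive gliosis lists gave values as high. For neutrophil markers r ran from -0.17 for Klf4 to 0.97 for Dusp1. For reactive gliosis it ran from 0.07 for Klf4 to 0.96 for Fosb. Against Muller glia markers r was lower for most genes, at -0.10 for Klf4, 0.88 for Arc and between 0.30 and 0.43 for all others. Klf4 thus did not follow the slide pattern of the rest.

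**Figure D4:**
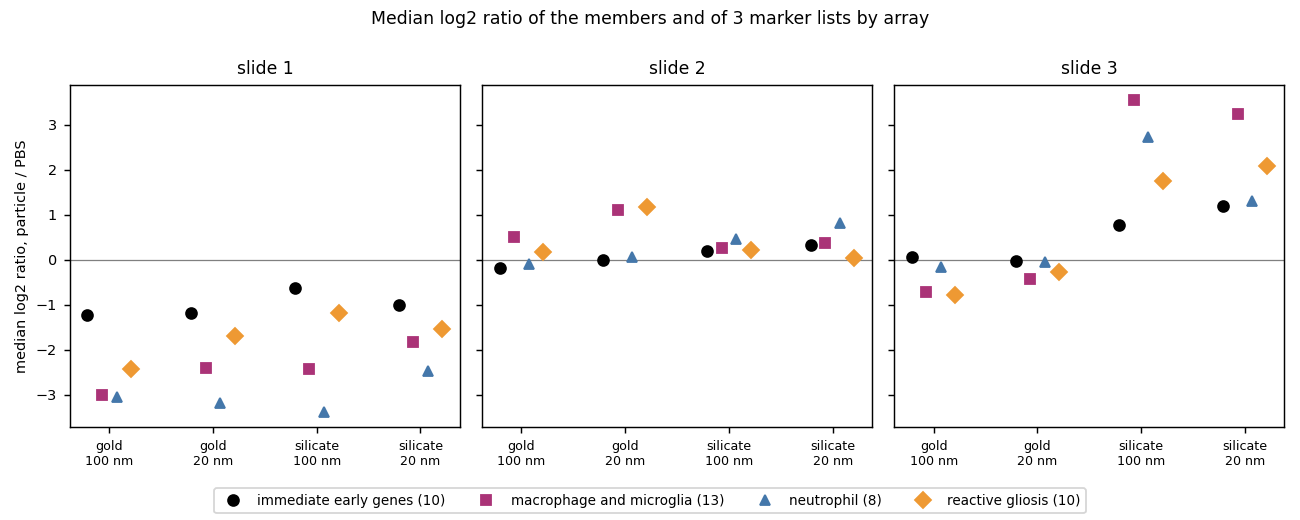
Median log2 ratio of particle over PBS (vertical axis) of the 10 immediate early genes (black circles) and of 3 marker lists, with the number of genes measured in brackets, for the 4 groups within slides 1 to 3. On slide 1 all medians lie below 0, and on slide 3 the macrophage and microglia median is 3.54 and 3.25 with silicate, where that of the 10 genes is 0.77 and 1.19.

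No difference with particle size was detected. For 100 nm against 20 nm, 0 of the 10 genes and 0% of all genes were called in limma, and 0 of the 10 had an unadjusted p under 0.05, as did 230 of all genes. The differences of 100 nm minus 20 nm ran between -0.15 for Fosb and 0.11 for Dusp1. Fos had a mean log2 ratio of 0.04 with 100 nm and of 0.10 with 20 nm, a difference of -0.07 with a 95% interval of -1.65 to 1.52, which is wide. Klf4 had the narrowest interval, -0.39 to 0.19. The size effect of gold against that of silicate called 0 of the 10 genes and 0% of all genes, with 142 of all genes at an unadjusted p under 0.05.

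Of 46 other immediate early genes listed, 41 were tested. Their median difference between gold and silicate was -0.36, with 38 of 41 below 0 and 0 called. Those with both gold arrays below both silicate arrays on each slide were Klf2, a factor of endothelium and immune cells (-0.31, -0.28 and -1.84 on slides 1, 2 and 3), Zfp36l1, which promotes decay of AU-rich mRNA (-0.44, -0.06 and -2.09), Csrnp1 (-0.21, -0.08 and -1.75), the kinase Plk3 (-0.30, -0.23 and -1.34) and Errfi1, an inhibitor of the EGF receptor (-0.18, -0.09 and -0.26). On slide 2 each of these differences was smaller than those of Fos, Egr1 and Nr4a1. Against PBS, 1 of the 41 passed the test, in the mean of the 4 groups, where 14.8% of all genes were called. This was Ier5, higher by 0.25 (limma adjusted p = 0.0496), in 10 of 12 arrays. A further probe of Ier5 read -0.18, and the call was lost without any 1 of the 3 slides, with the slide as a random block, with no filter on dim probes and with the mean over probes.

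Of 31 genes for the kinases and factors upstream, all 31 were tested, and 0 were called between gold and silicate. Both gold arrays were below both silicate arrays on each slide for 1 of the 31, beside 2.7% of all genes. This was Srf, the serum response factor itself (-0.30, -0.17 and -0.51, limma adjusted p = 0.881). The reverse held for 1 of the 31, Atf2 (0.13, 0.11 and 0.21), and for 523 of 23199 genes. Against PBS, Elk1, which encodes a partner of SRF that MAP kinases phosphorylate, was higher in the mean of the 4 groups by 1.01 ± 0.09 (SE; limma adjusted p = 9.17e-05) and on 12 of 12 arrays, at 0.52 to 1.49. It also passed with gold 100 nm (1.12, adjusted p = 0.0185), silicate 100 nm (1.02, adjusted p = 0.029) and silicate 20 nm (1.04, adjusted p = 0.0207), and had 0.85 with gold 20 nm (adjusted p = 0.0712). A further probe of Elk1 read 0.03 in the mean, so the probes disagree, and the part of the dye was not tested. The called probe had mean levels of 18.40 in particle and 17.40 in PBS retinas, the further probe 7.20 and 7.17. Whether both probes read Elk1 was not tested. With the processed signals and with the deposited values, 0 of the 31 were called in any single group, and without 1 slide the same held except for 1 call, with silicate 20 nm without slide 3. In the mean of the 4 groups, Rps6ka5, the kinase MSK1, fell by 0.18 (limma adjusted p = 0.00482) on 12 of 12 arrays. Map2k2, the kinase MEK2, fell by 0.17 (adjusted p = 0.032) on 11 of 12. That mean thus called 1 of the 31 higher and 2 lower, where it called 14.8% of all genes. With the slide as a random block 1 of the 31 was called in the mean.

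The genes whose log2 ratios over the 12 arrays were most like the mean of the 10 were Sertad2 (Pearson's r of 0.99), Sult2a8 (0.99), Cish (0.99), Bbc3 (0.98) and Mpp6 (0.98), among 23189 genes. For Fos they were Kti12 (0.98), Cish (0.98), Fbxo42 (0.98), Glud1 (0.98) and Sult2a8 (0.98). Bbc3 ran between -1.92 and 2.09, and Kti12 only between -0.24 and 0.31. The 12 points share slides, so these values describe likeness over these arrays alone.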

How the data were processed

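RNA of the 4 particle groups was measured on 12 two-colour Agilent arrays, 3 per group, against PBS retinas. Scanner values were deposited as intensity. Per the file headers the extraction software was Feature Extraction 11.0.1.1, and per the submitters' processing notes it was 9.3.2.1. Median foreground and background signals were used, with the deposited processed intensity as an alternative. The series' value table, made by the authors, is in log2 of Cy5 over Cy3, as its slope of 3.30 to 3.32 on the deposited log10 ratios shows (r of 0.941 to 0.995 over 39429 probes, which are not independent). Its column medians ran from 0.02 to 0.11, at 0.06, 0.05 and 0.04 (gold 100 nm), 0.02, 0.03 and 0.04 (gold 20 nm), 0.07, 0.05 and 0.11 (silicate 100 nm) and 0.09, 0.05 and 0.09 (silicate 20 nm), and its centring is not given in the sources used here.

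Background was corrected by normexp (offset 50) and arrays were normalized by loess, with 1377 control spots at weight 0. Flagged spots (149 to 257 per array) were left out and 0 spots were saturated. Probes were named by RefSeq accession with the names of GRCm38.p6, which 26055 of 32334 such probes matched. Kept were 28460 of 39429 probes, those well above background in either channel on the 3 arrays of some group, and the brightest kept probe stood for its gene. Log2 ratios were tested with lmFit and eBayes (limma 3.58.1, R 4.3.3, data.table version 1.17.8), two-sided, with 4 group means and Benjamini-Hochberg adjustment over all genes, after a test on simulated data. The number of arrays limits the precision. Levels are single channels after loess and Aquantile scaling. A summed level is the log2 of summed intensities. Promoter sequences are from RefSeq.

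Replicate numbers equal the slides of the file headers and so pair the arrays. Deviations from group means correlated, across genes, at 0.889 to 0.934 on slide 1, 0.0816 to 0.831 on slide 2 and 0.555 to 0.919 on slide 3. Which PBS tube each array held is not stated, so a tube shared by a slide is an assumption. The members and lists were chosen with earlier results of these data known. Named genes are the 10 members, genes of the other lists past the threshold, and the 5 nearest by correlation. Other list genes below or above on each slide were named after their values were seen.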

Additional observations from a re-analysis of the deposited data

How the results depend on the processing

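Over 12 alternatives and 80 combinations of gene and comparison, 951 of 960 values for the 10 genes kept their side of the threshold without a change of a called sign. With the replicate block, the number called was 1 for gold 100 nm, 3 for silicate 20 nm and 2 for the mean of the 4 groups, against 0 each without it. It changed no other call among the 10 genes. Leaving out one replicate gave 0 to 1 called for silicate 20 nm and 0 to 2 for the mean of the 4 groups, and Nr4a1 in that mean ran from -0.26 without replicate 3 to 0.40 without replicate 1, against -0.02. These fits differ in the samples and terms they hold, and the cause was not tested. Random block, normalization, offset, filter, probe choice and the deposited value table called 0 of the 10 in all comparisons. Each of the 10 genes had 1 probe, which was kept, so filter and probe choice could not change their ratios. A further 71 values changed sign with no call on either side. Over all genes the number called ranged over 4 to 1560 for gold 100 nm (227 as reported), 8 to 1038 for gold 20 nm (164), 7 to 936 for silicate 100 nm (230), 8 to 2035 for silicate 20 nm (483), 267 to 8089 for the mean (3430) and 0 to 15 for gold against silicate (0). Median centring in place of loess moved the share of higher calls to 87.7% for silicate 20 nm and 75.9% for the mean, against 76.2% and 57.1%. In the mean, 0 to 12 other immediate early genes (1 as reported) and 1 to 12 upstream genes (3 as reported) were called. All 10 probes were well above background on all 12 arrays, and 3 arrays per group limit the precision.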
